A study of Mus musculus with 14 samples.

Results

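The Cyp2c genes of the mouse encode cytochrome P450 enzymes of the liver and other tissues. The 10 genes described here, Cyp2c29, Cyp2c37, Cyp2c38, Cyp2c39, Cyp2c40, Cyp2c44, Cyp2c50, Cyp2c54, Cyp2c55 and Cyp2c70, were taken by name from the 24411 genes in the count files, which hold 16 Cyp2c genes and pseudogenes. They were chosen by a reading of these same libraries in which Cyp2c37 was among the genes with the largest fall in LKO against WT after tunicamycin, so that contrast is given below as a description only. Of the 10, 9 had enough reads to be tested among the 9644 genes tested, and Cyp2c39 did not.

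The study sequenced polyadenylated RNA from livers of male littermate mice of 5 to 7 months. All mice carried Rbbp5 flox/flox alleles. WT mice had no Alb-CRE (-/-) and LKO mice were Alb-CRE (+/-), in which the albumin promoter drives Cre in hepatocytes, so that other liver cells keep Rbbp5, a core subunit of the methyltransferase complexes of histone H3 lysine 4. Mice of each genotype were given tunicamycin (it blocks N-linked glycosylation and so causes endoplasmic reticulum stress) at 0.05 mg/kg, or vehicle (3% DMSO in PBS, 500 µl), by intraperitoneal injection from 9 to 10 a.m., with the livers collected after 8 h. There were 3 libraries for each treatment in WT and 4 for each in LKO. The counts of LKO vehicle 3 and 4 were alike to near the sampling noise, so both were added up and treated as 1 sample, for 13 samples in all. The labels do not tie libraries to separate mice, so p-values measure the spread between these samples, which may be partly technical.

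Libraries held from 6507018 to 13519421 reads on the gene's strand, of which Rn45s, the ribosomal RNA precursor, took from 72.5 to 75.5%, which left 1704479 to 3551398 on other genes. Rbbp5 ranged from 4.07 to 6.41 CPM (counts scaled to a common library size with TMM factors) in WT and from 1.90 to 4.15 CPM in LKO; the library labelled LKO vehicle 1 held the 4.15 CPM and lay within the WT range. In WT tunicamycin 2, Ddit3, a gene induced by endoplasmic reticulum stress, was at 1.30 CPM, against 26.3 and 20.4 CPM in WT tunicamycin 1 and 3. Where leaving out either library moved a result much, the value without it is given beside it. The 8 hepatocyte markers were detected in all groups, with summed levels of 20317 to 31045 CPM.

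Cyp2c enzymes sit in the endoplasmic reticulum membrane, take electrons from P450 oxidoreductase (Por) and oxidise drugs, steroids, bile acids and fatty acids. Several epoxidise arachidonic acid and linoleic acid, and soluble epoxide hydrolase (Ephx2) degrades the epoxides. In hepatocytes their transcription is known to depend on HNF4A and C/EBP factors and to respond to the nuclear receptors CAR (Nr1i3) and PXR (Nr1i2). The genes arose by local duplication, and the copies remain alike in sequence.

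Of the 10 genes, 9 lay in a single cluster on chromosome 19 (RefSeq, GRCm38.p6, the mm10 build), from Cyp2c55 at 39006940 to Cyp2c70 at 40187286, a span of 1180 kb that held 14 coding genes and 3 pseudogenes of the family. Cyp2c44, named Cyp2c23 in RefSeq, lay 3818 kb further along, at 44005022 to 44029256. Within the cluster, Cyp2c37 (39992424 to 40012243, plus strand), Cyp2c54 (40037939 to 40073845, minus strand) and Cyp2c50 (40089679 to 40113955, plus strand) were direct neighbours, separated by 25.7 and 15.8 kb. Cyp2c29 (39287044 to 39330713, plus strand) lay in the other part, before Cyp2c39 and Cyp2c38. The RefSeq span of Cyp2c39, 222 kb on the plus strand, covered Cyp2c38, which is on the minus strand, and the counts used kept the strands apart.

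Cyp2c37 and Cyp2c50 lie on either side of Cyp2c54, and their levels varied together. Cyp2c29 is the most abundant member, and Cyp2c70 did not follow these genes over the 13 samples. The sequences before Cyp2c37, Cyp2c50, Cyp2c29 and Cyp2c70 are shown for that reason. They are the bases before the RefSeq start of transcription in GRCm38.p6, 5′ to 3′ on the gene's strand: chr19:39992174-39992423 for Cyp2c37 (plus), chr19:40089429-40089678 for Cyp2c50 (plus), chr19:39286835-39287043 for Cyp2c29 (plus, without the last 41 bases of its window, which fall inside the longest annotated gene span) and chr19:40187287-40187536 for Cyp2c70 (minus). Capitals mark matches, on either strand, to any of 7 motifs: CAAAGTC (HNF4A-type), AGGTCA (nuclear receptor type), TGTTTAC (forkhead), GTTAAT (HNF1-type), TATAAA (core promoter box), TTGCNNAA (C/EBP-type) and TGATGNAA (ATF4-type).
Cyp2c37: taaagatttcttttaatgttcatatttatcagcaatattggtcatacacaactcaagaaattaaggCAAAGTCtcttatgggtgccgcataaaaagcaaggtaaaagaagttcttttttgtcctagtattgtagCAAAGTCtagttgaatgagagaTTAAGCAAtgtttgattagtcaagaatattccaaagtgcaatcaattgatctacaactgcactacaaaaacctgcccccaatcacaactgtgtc
Cyp2c50: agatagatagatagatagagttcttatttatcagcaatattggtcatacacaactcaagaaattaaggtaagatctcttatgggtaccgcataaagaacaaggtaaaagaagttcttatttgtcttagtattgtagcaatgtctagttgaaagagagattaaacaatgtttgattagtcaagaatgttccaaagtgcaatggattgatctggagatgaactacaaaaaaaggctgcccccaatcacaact
Cyp2c29: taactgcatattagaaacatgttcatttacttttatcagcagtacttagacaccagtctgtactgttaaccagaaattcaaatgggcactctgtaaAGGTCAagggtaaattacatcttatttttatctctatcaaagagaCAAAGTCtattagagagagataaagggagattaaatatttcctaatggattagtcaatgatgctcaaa
Cyp2c70: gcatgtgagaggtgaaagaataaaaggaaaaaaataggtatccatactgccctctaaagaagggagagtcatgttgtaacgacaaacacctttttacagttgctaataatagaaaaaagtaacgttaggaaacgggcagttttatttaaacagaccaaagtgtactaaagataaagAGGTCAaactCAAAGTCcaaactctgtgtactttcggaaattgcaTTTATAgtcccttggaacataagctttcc

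RefSeq windows of 250 bases were at hand for 8 of the 10 genes; Cyp2c44 and Cyp2c54 had no entry. CAAAGTC was found in the windows of 5 of the 8 (Cyp2c29, Cyp2c37, Cyp2c39, Cyp2c40 and Cyp2c70) and in 3.84% of 32851 promoter windows of the genome. Cyp2c37 held it at 2 places, 184 to 178 and 116 to 110 bases before the start, and the window of Cyp2c50, aligned to that of Cyp2c37 at 86.3% identity, held no match to any of the 7 motifs. AGGTCA was found in 3 of the 8 (Cyp2c29, Cyp2c39 and Cyp2c70), against 14.02% of all windows, and in Cyp2c70 it lay 74 to 69 and CAAAGTC 64 to 58 bases before the start. TATAAA was found in 4 of the 8, against 12.4% of all windows (in Cyp2c29 at 19 to 14 bases before the start, in the part not printed), the forkhead motif in 2, against 3.17%, GTTAAT in Cyp2c40, against 6.43%, and TTGCNNAA in Cyp2c37, against 9.56%. TGATGNAA was found in none of the 8, against 3.45% of all windows. No matches overlapped in these windows. The matches are descriptions of letters, and no binding was measured here.

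Sequence shared between the copies limits what a read can tell, since the deposited counts hold only reads that STAR placed at 1 site. In the first GENCODE transcript of each gene, windows of 50 bases that occur in no transcript of another gene made up 100% for Cyp2c44 and Cyp2c70, 99.5% for Cyp2c55 and 97.9% for Cyp2c29. The share was 92.6% for Cyp2c38, 88.0% for Cyp2c39, 74.3% for Cyp2c54, 69.9% for Cyp2c37 and 67.4% for Cyp2c50. For Cyp2c40 it was 27.9%, and 55.9% with windows of 100 bases; its transcript was 98.0% identical to that of Cyp2c68. The read length is not given in the sources used here, so the windows bracket it only loosely. Cyp2c37 and Cyp2c54 transcripts were 92.7% identical, and Cyp2c50 and Cyp2c37 86.5%. Cyp2c37 shared 21.1% of its 50-base windows with Cyp2c50 and 15.7% with Cyp2c54, so differences between these 3 genes rest on part of each transcript.

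Levels between genes were compared per length, with the deposited FPKM (fragments per kb of transcript, scaled to library size). Over the 13 samples Cyp2c29 had the highest median, 87.2 FPKM (38.4 to 107.8). It was followed by Cyp2c50 at 36.4 (8.40 to 69.7), Cyp2c70 at 32.6 (22.8 to 50.9), Cyp2c44 at 22.7 (16.8 to 35.6), Cyp2c37 at 13.4 (2.35 to 27.1) and Cyp2c54 at 12.6 (3.07 to 25.7). Below these came Cyp2c40 at 3.24 (2.59 to 4.06), Cyp2c38 at 1.34 (0.719 to 2.10), Cyp2c55 at 0.313 (0.0781 to 0.717) and Cyp2c39, listed from 0 to 0.308 with a median of 0.193. The ranges of neighbours in this order overlapped, except between Cyp2c40 and Cyp2c38 and, by the last digit shown, between Cyp2c38 and Cyp2c55. Counts per kb of transcript put the first 4 genes in the same order, and Cyp2c40 last in place of seventh.

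**Figure D1:**
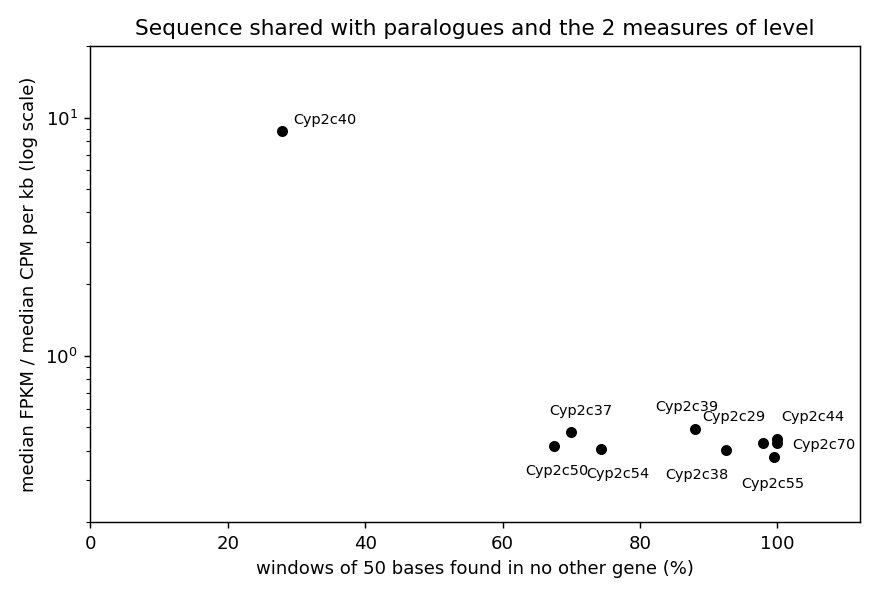
Share of 50-base windows of each transcript that occur in no other gene (x axis, percent) against the ratio of the median deposited FPKM to the median CPM per kb of transcript over 13 samples (y axis, log scale), 1 point per gene. The ratio is 8.78 for Cyp2c40 and from 0.375 to 0.492 for the other 9 genes.

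The ratio of FPKM to counts per kb lay between 0.375 and 0.492 for 9 of the genes and at 8.78 for Cyp2c40. Cyp2c40 had 0 to 12 reads per sample at 1 site, while its FPKM was 2.59 or more in every sample. The plot of shared sequence against this ratio shows that it stands apart on both axes, and the part of shared sequence in its FPKM was not tested.

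LKO against WT with vehicle asks how the liver differs at rest when Rbbp5 is deleted in hepatocytes, and it shares no library with the contrast by which the genes were chosen. Cyp2c37 and Cyp2c29 were lower in every LKO sample than in every WT sample, 2.32-fold and 1.5-fold by the fitted means, while Cyp2c44, Cyp2c50, Cyp2c54 and Cyp2c70 overlapped between genotypes. None of these differences passed the test over all genes. Of the 9 genes tested, 0 were called in edgeR's quasi-likelihood test at a Benjamini-Hochberg adjusted p under 0.05, against 0.0415% of all genes, and DESeq2 called 0. At an unadjusted p under 0.05 there were 3, all lower in LKO (Cyp2c37, Cyp2c29 and Cyp2c40), against 8.15% of all genes, and the CPM of the groups did not overlap for the same 3, against 15.1% of all genes. Of the 9 log2 fold changes, 7 were below 0, with a median of -0.38 beside 0.0048 for all genes. Without the library labelled LKO vehicle 1, 2 genes had an unadjusted p under 0.05 and 0 were called. In bulk tissue, fewer cells of a type and less RNA per cell cannot be told apart; the summed hepatocyte markers lay between 20743 and 28802 CPM in LKO vehicle and between 23247 and 25214 CPM in WT vehicle. The summed markers of stellate cells and fibroblasts did not overlap, at 137 to 187 CPM in LKO vehicle and 80.6 to 129 CPM in WT vehicle. Of these, 9 of the 9 tested had log2 fold changes above 0, with 4 at an unadjusted p under 0.05. By edgeR 0 of them were called, and DESeq2 called 2 higher, Col1a1 and Col1a2. The summed bile duct markers did not overlap either, at 17.7 to 55.5 CPM in LKO vehicle and 8.89 to 11.97 CPM in WT vehicle. Of 2 tested, 1 had an unadjusted p under 0.05 and 0 were called by either tool. Their part in the differences was not tested.

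Cyp2c37, a fatty acid epoxygenase, was at 90.9, 106.9 and 93.0 CPM in WT vehicle 1 to 3, and at 26.4, 51.0 and 47.1 CPM in LKO vehicle 1, 2 and the sum of 3 and 4. Every LKO sample lay below every WT sample. The fitted log2 difference was -1.22 ± 0.31 (SE), 2.32-fold lower; its edgeR adjusted p was 0.260, so the difference did not pass over all genes. Without the library labelled LKO vehicle 1 it was -0.99, with an edgeR adjusted p of 0.587. With no filter on low counts it passed, at an edgeR adjusted p of 0.000955. That setting called 84 genes of the whole table, against 4 with the filter.

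Cyp2c29, which oxidises fatty acids and many drugs, was at 425, 455 and 429.7 CPM in WT vehicle and at 251, 261 and 360.4 CPM in LKO vehicle. The groups did not overlap, and the sample summed from LKO vehicle 3 and 4 was the closest to WT. The fitted log2 difference was -0.59 ± 0.18 (SE; edgeR adjusted p 0.359), and it was -0.50 without the library labelled LKO vehicle 1. Cyp2c40, at 0.178 to 0.876 CPM in LKO vehicle and 1.15 to 1.46 CPM in WT vehicle, also did not overlap and is described below with its reads. The other 6 genes tested overlapped between the groups. Cyp2c50 was at 189.6, 282 and 198 CPM in WT vehicle and at 125, 210.4 and 239 CPM in LKO vehicle, and its log2 fold change of -0.22 ± 0.39 (SE) was 0.0011 without LKO vehicle 1. Cyp2c44 differed by 0.02 ± 0.17 (log2, SE) and Cyp2c70, which makes muricholic acids from bile acids, by 0.33 ± 0.25, or 0.055 without LKO vehicle 1. Without that library Cyp2c54 was at -0.19 in place of -0.38.

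**Figure D2:**
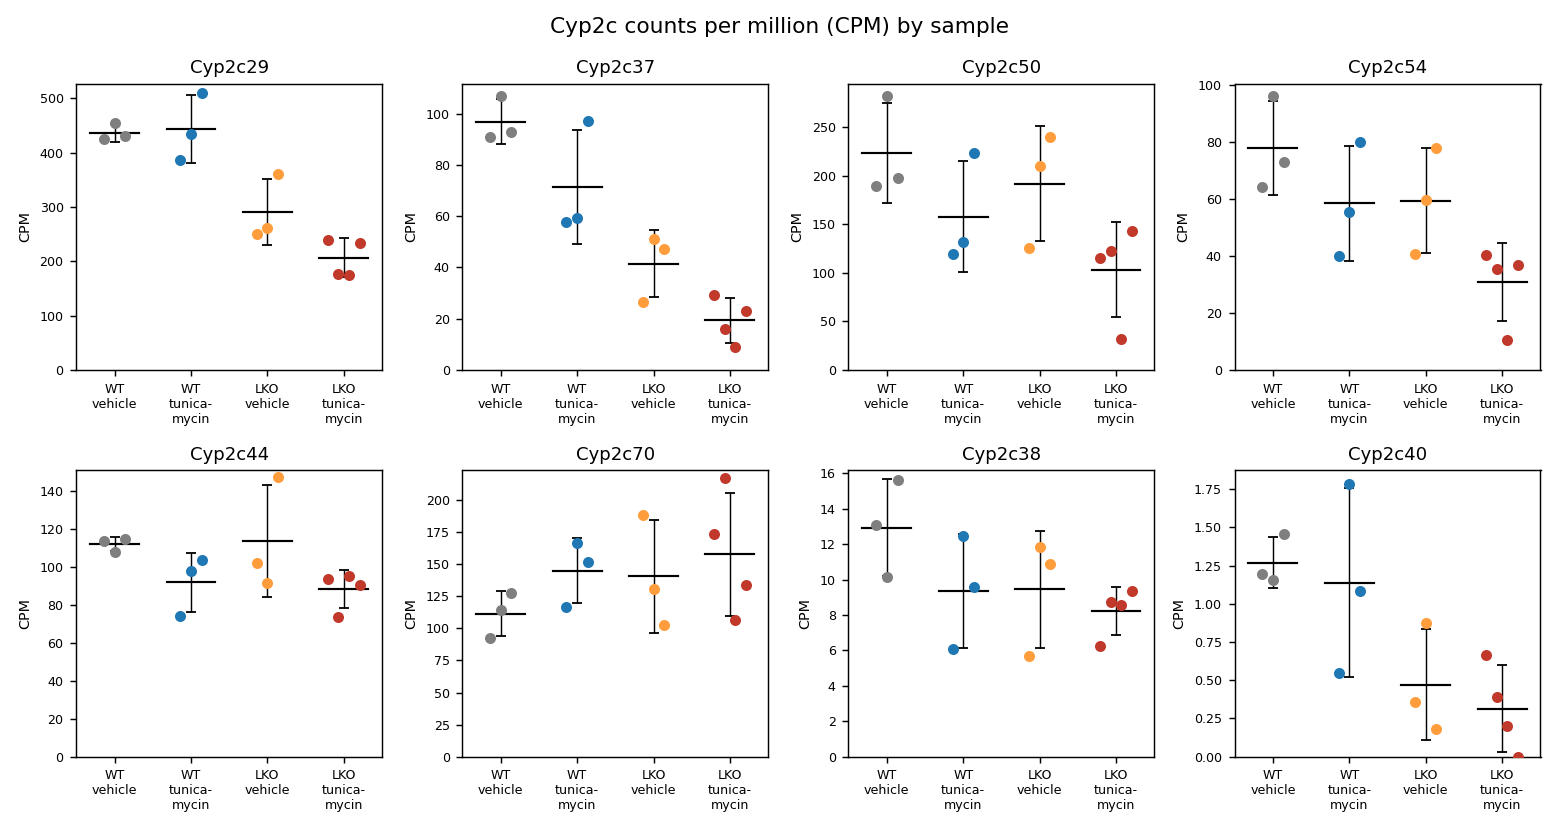
CPM (TMM scaled, linear axis from 0) of 8 Cyp2c genes by group, 1 point per sample, with the group mean (line) and SD (bar); LKO vehicle 3 and 4 are 1 sample. For Cyp2c37 and Cyp2c29 every LKO vehicle sample lies below every WT vehicle sample, while the genotypes overlap for Cyp2c44 and Cyp2c70. The same holds after tunicamycin, which is the contrast that chose the genes and is shown as a description.

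Tunicamycin against vehicle asks how the genes differ after a drug that causes stress of the endoplasmic reticulum. The stress genes themselves are given below for each genotype. The WT libraries after tunicamycin also enter the contrast that chose the genes. In WT the abundant genes stayed within a fold of 1.5 of their vehicle level by the fitted means of all 13 samples. None of the differences passed the test. By edgeR 0 of the 9 genes were called, against 0.363% of all genes, 0 had an unadjusted p under 0.05, against 14.8%, and DESeq2 called 0. Of the 9 log2 fold changes 7 were below 0 (8 with total count scaling), with a median of -0.29 beside 0.014 for all genes, and the CPM of the groups did not overlap for Cyp2c44 alone, against 17.3% of all genes. Cyp2c44, an epoxygenase, was at 113.8, 108 and 114.7 CPM with vehicle and at 74.4, 97.8 and 104 CPM after tunicamycin (log2 -0.29 ± 0.17, SE; edgeR adjusted p 0.477). Cyp2c29 differed by 0.02 ± 0.18 on the log2 scale, or -0.17 with total count scaling, and its values after tunicamycin, 387, 434 and 510.0 CPM, lay on both sides of the vehicle values. Cyp2c37 was at 57.8, 59.5 and 97.2 CPM after tunicamycin, 2 of the samples below and 1 within the vehicle range, and WT tunicamycin 2 was not the sample within it. Without WT tunicamycin 2 the log2 fold change of Cyp2c37 was -0.32 in place of -0.44, and that of Cyp2c50 -0.38 in place of -0.50. In that fit 1 gene, Cyp2c38, had an unadjusted p under 0.05. Over leaving out each of the 13 samples in turn, Cyp2c37 ranged from -0.73 to -0.31 and Cyp2c50 from -0.84 to -0.31. Under the other tools, scalings, filters and measures they reached -0.65 and -0.68.

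In LKO, Cyp2c37, Cyp2c54 and Cyp2c50 were 2.17-fold, 1.95-fold and 1.86-fold lower after tunicamycin than with vehicle, and Cyp2c29 was 1.41-fold lower, while Cyp2c70 and the weakly expressed genes lay within their spread. None of these differences passed the test over all genes. By edgeR 0 of the 9 were called, against 0.0311% of all genes, and DESeq2 called 0. At an unadjusted p under 0.05 there were 5, all lower after tunicamycin (Cyp2c29, Cyp2c37, Cyp2c44, Cyp2c50 and Cyp2c54), against 12.2% of all genes, and the groups did not overlap for Cyp2c29 and Cyp2c54, against 11.6% of all genes. The median log2 fold change was -0.50 beside 0.0045 for all genes. This comparison shares the LKO tunicamycin libraries with the contrast by which the genes were chosen.

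Cyp2c37 was at 29.4, 15.9, 9.07 and 22.9 CPM in LKO tunicamycin 1 to 4, against 26.4 to 51.0 CPM in LKO vehicle, so that 1 sample reached the vehicle range. This was a log2 difference of -1.12 ± 0.30 (SE; edgeR adjusted p 0.215). Cyp2c54, an epoxygenase, was at 40.9, 59.6 and 77.8 CPM in LKO vehicle and at 40.5, 35.5, 10.5 and 36.7 CPM in LKO tunicamycin, and its highest value after tunicamycin lay just under the lowest with vehicle. Its log2 difference was -0.96 ± 0.33 (edgeR adjusted p 0.286). Cyp2c50 was at 115.7, 122.1, 32 and 142.9 CPM after tunicamycin (log2 -0.90 ± 0.36; edgeR adjusted p 0.338). For each of these 3 neighbours LKO tunicamycin 3 was the lowest sample. Without it the log2 fold changes were -0.87 for Cyp2c37, -0.67 for Cyp2c54 and -0.60 for Cyp2c50. Without the library labelled LKO vehicle 1 they were -1.35, -1.17 and -1.13, and 5 genes had an unadjusted p under 0.05 when one or the other was left out. Without LKO vehicle 3 and 4 only 1 gene did, and over leaving out each of the 13 samples the number was 1 to 5. With no filter on low counts the 3 genes passed, with edgeR adjusted p of 0.00134, 0.0159 and 0.0485 in that order. That setting called 153 genes of the whole table, against 3 with the filter. Cyp2c29 was at 240.0, 176, 174 and 234 CPM in LKO tunicamycin, where sample 3 did not stand apart, and it differed by -0.50 ± 0.17 on the log2 scale (edgeR adjusted p 0.276).

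LKO against WT after tunicamycin is the contrast that chose the genes, so its values are a description of the choice and no p-value is given. The call rule that is applied to all genes marked 2 of the 9, Cyp2c37 and Cyp2c29, and 0.861% of all genes, and 2 of the 9 had no overlap between WT and LKO, as did 12.9% of all genes. Nothing is read from these counts, since the same values chose the genes. Cyp2c37 was at 57.8 to 97.2 CPM in WT and at 9.07 to 29.4 CPM in LKO, 3.72-fold lower (log2 fold change -1.89 ± 0.30, SE). Cyp2c29 was at 387 to 510.0 CPM in WT and at 174 to 240.0 CPM in LKO, 2.15-fold lower (-1.11 ± 0.17). Without WT tunicamycin 1 the log2 fold changes were -2.03 and -1.20, and the rule marked 0 genes of the whole table. Without WT tunicamycin 2 they were -2.01 and -1.12. Cyp2c54 was at -0.93 ± 0.34 and Cyp2c50 at -0.62 ± 0.36, which became -0.64 and -0.31 without LKO tunicamycin 3. The median of the 9 was -0.62 beside -0.012 for all genes.

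**Figure D3:**
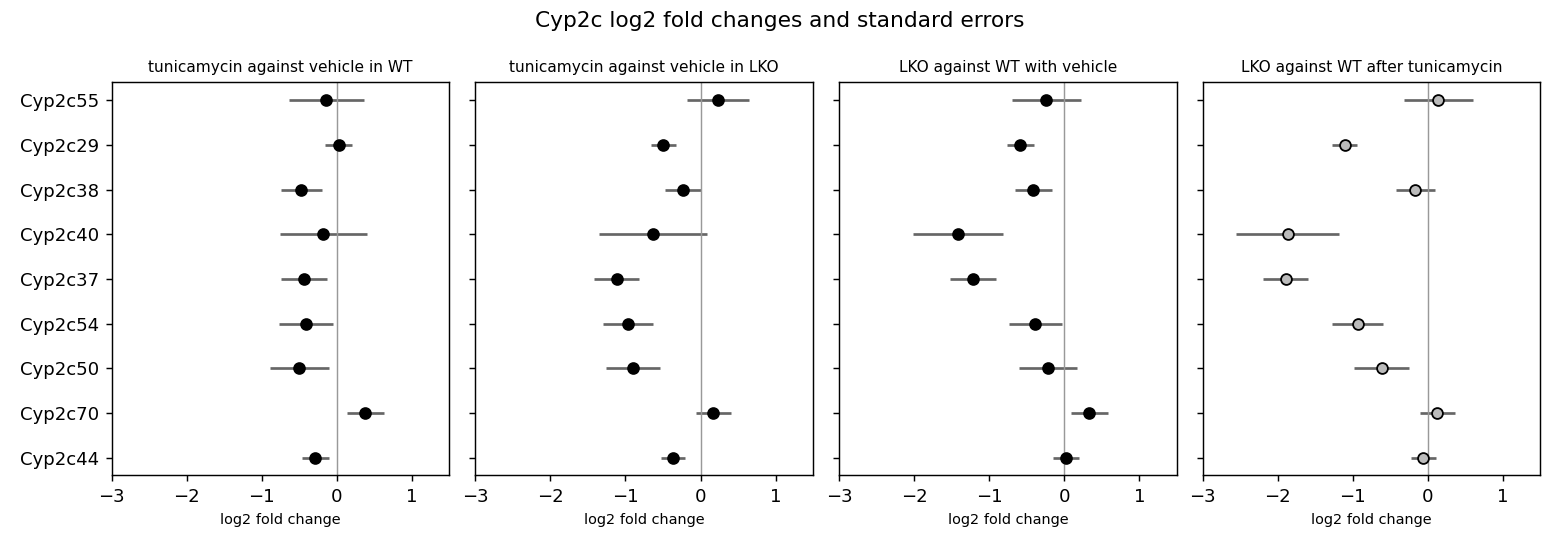
Log2 fold change (x axis) of the 9 tested genes in 4 comparisons, with the standard error as bars; grey points are the contrast that chose the genes, shown as a description. In the other panels (black points) no gene had an edgeR adjusted p under 0.05, and Cyp2c70 lies to the right of 0 in all 4 panels.

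The difference between the tunicamycin effects in LKO and WT was tested as an interaction, which also takes in the libraries of the contrast that chose the genes. None of the 9 genes was called by edgeR (0 of 9, against 0% of all genes), DESeq2 called 0, and 1 gene, Cyp2c29, had an unadjusted p under 0.05, against 4.91% of all genes. That number was 2 without LKO vehicle 1 or LKO tunicamycin 1, 1 without WT tunicamycin 1, LKO vehicle 2 or LKO tunicamycin 4, and 0 without any other single sample, WT tunicamycin 2 among them. The interaction was -0.52 ± 0.25 (log2, SE) for Cyp2c29, with an edgeR adjusted p of 0.968, and -0.68 ± 0.43 for Cyp2c37, with an edgeR adjusted p of 0.982. The tunicamycin effects of the genotypes were not shown to differ for any of these genes.

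Cyp2c40, known for fatty acid hydroxylation in the intestine, had 9, 10 and 10 reads in WT vehicle, 4, 11 and 7 in WT tunicamycin, 3, 12 and 3 in LKO vehicle, and 5, 3, 2 and 0 in LKO tunicamycin. A count of 0 allows up to 0.326 CPM in that library. Its log2 fold change in LKO against WT was -1.41 ± 0.59 (SE) with vehicle and -1.87 ± 0.69 after tunicamycin in the counts. On the log2(FPKM + 1) scale the same differences were -0.24 and 0.05. Its mean FPKM was 3.76 ± 0.293 (SD, n = 3) in WT vehicle and 3.07 ± 0.735 (n = 3) in LKO vehicle, lower in LKO as in the counts. After tunicamycin it was 3.04 ± 0.446 (n = 3) in WT and 3.17 ± 0.134 (n = 4) in LKO, so there the lower level in the counts was not seen in FPKM. Its close copies Cyp2c67 and Cyp2c68 had more reads at 1 site, with group means of 56.6 to 61.1 CPM and 25.6 to 34.9 CPM. Neither was called by edgeR or DESeq2, or had an unadjusted p under 0.05, in any of the 5 comparisons. With vehicle Cyp2c68 did not overlap between genotypes, at 24.1 to 27.9 CPM in LKO and 31.6 to 37.9 CPM in WT. This was a log2 difference of -0.44 ± 0.21 (SE), and 15.1% of all genes did not overlap there. Cyp2c67 overlapped. Cyp2c65 and Cyp2c66 had 0 reads in all groups, which allows up to 3 reads per library by counting error alone.

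Cyp2c70 stood apart from the other abundant genes. It was at 92.6, 114.2 and 127.7 CPM in WT vehicle, 117, 166 and 151 CPM in WT tunicamycin, 189, 131 and 102 CPM in LKO vehicle and 173, 217, 107 and 134 CPM in LKO tunicamycin, and its log2 fold changes lay above 0 in the 4 comparisons of groups, from 0.12 to 0.38, with edgeR adjusted p from 0.512 to 0.831 in the 3 that did not choose the genes. The groups overlapped in all 4. Its fold change turned below 0 for tunicamycin in LKO without LKO tunicamycin 2 or without LKO vehicle 3 and 4, and for LKO against WT after tunicamycin without LKO tunicamycin 2 or WT tunicamycin 1. Over the 13 samples its log2 CPM had a Pearson r of -0.36 with Cyp2c29, -0.32 with Cyp2c37 and -0.09 with Cyp2c50 and Cyp2c54. Once group means were taken out, r was -0.18 with Cyp2c29, 0.09 with Cyp2c37, 0.29 with Cyp2c50 and 0.36 with Cyp2c54.

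The share of each gene in the reads of the 10 shows the same data within a sample. Cyp2c29 gave from 38.7 to 48.2% of these reads in WT and from 27.0 to 39.8% in LKO. Cyp2c37 gave from 6.19 to 9.16% in WT and from 2.07 to 6.22% in LKO, and Cyp2c70 from 9.33 to 17.3% in WT and from 10.4 to 33.3% in LKO. These ranges take in the tunicamycin samples of the contrast that chose the genes, so they are a description. With vehicle alone Cyp2c37 gave 8.81 to 9.16% in WT and 3.56 to 6.22% in LKO. Summed over the 10 genes, WT vehicle held 1075 ± 93.8 CPM (SD, n = 3) and WT tunicamycin 981 ± 189 CPM (n = 3), while LKO vehicle held 850 ± 126 CPM (n = 3) and LKO tunicamycin 616 ± 120 CPM (n = 4). LKO tunicamycin 3 had the lowest sum, 439 CPM. The ratio of Cyp2c37 to Cyp2c29 reads was 0.137 to 0.235 in WT and 0.0520 to 0.195 in LKO.

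**Figure D4:**
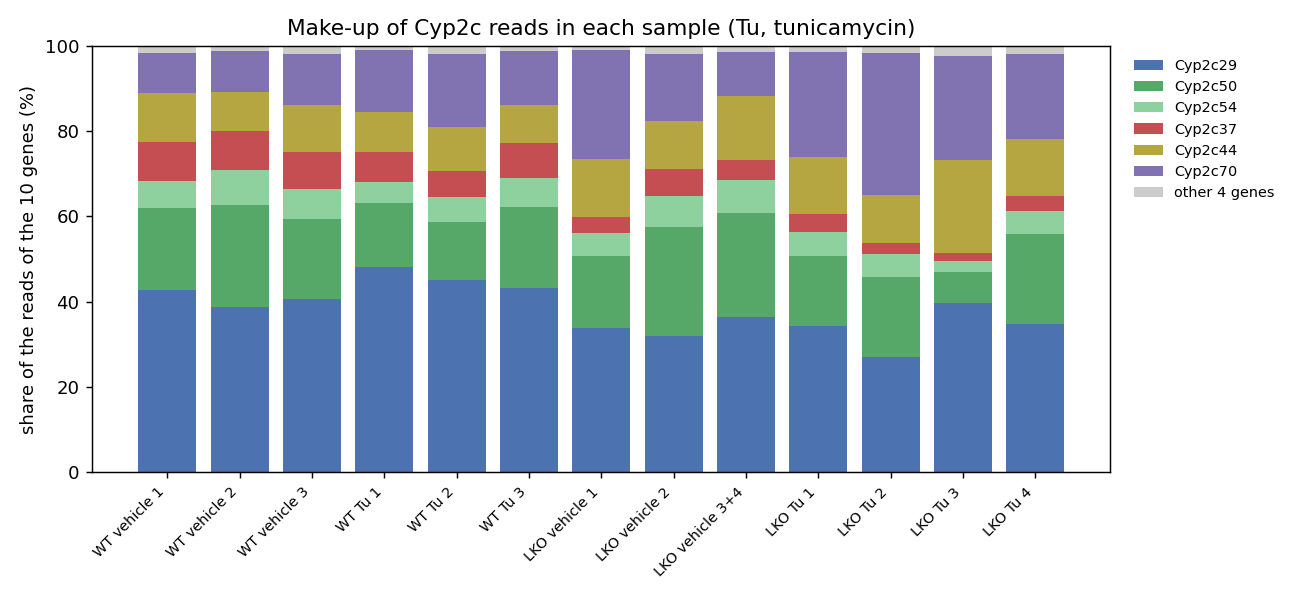
Share of the reads of the 10 Cyp2c genes (y axis, percent) given by each gene, 1 bar per sample; the 4 genes with few reads are drawn together in grey. Cyp2c37 takes from 8.81 to 9.16% of the bar in WT vehicle samples and from 3.56 to 6.22% in LKO vehicle samples. The tunicamycin bars are those of the contrast that chose the genes and are a description.

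The neighbours Cyp2c37, Cyp2c54 and Cyp2c50 varied together across samples. Cyp2c50 and Cyp2c54 had a Pearson r of 0.98 (log2 CPM, 13 samples), and 0.97 once group means were taken out; for Cyp2c37 and Cyp2c54 these were 0.89 and 0.89, and for Cyp2c37 and Cyp2c50 0.81 and 0.88. The ratio of Cyp2c50 to Cyp2c54 reads stayed between 2.36 and 3.89 while Cyp2c54 ranged from 10.5 to 96.2 CPM. The 3 genes share libraries, depth and up to 22.4% of their 50-base windows, so these values describe the samples only. Cyp2c29 and Cyp2c37, which lie apart in the cluster, had r of 0.95 over samples and 0.77 within groups. Cyp2c44, outside the cluster, had r of 0.46 with Cyp2c29 over samples and 0.74 within groups. Cyp2c70, the next gene along at 39.4 kb beyond Cyp2c50, had r of -0.09 with Cyp2c50 over samples and 0.29 within groups.

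**Figure D5:**
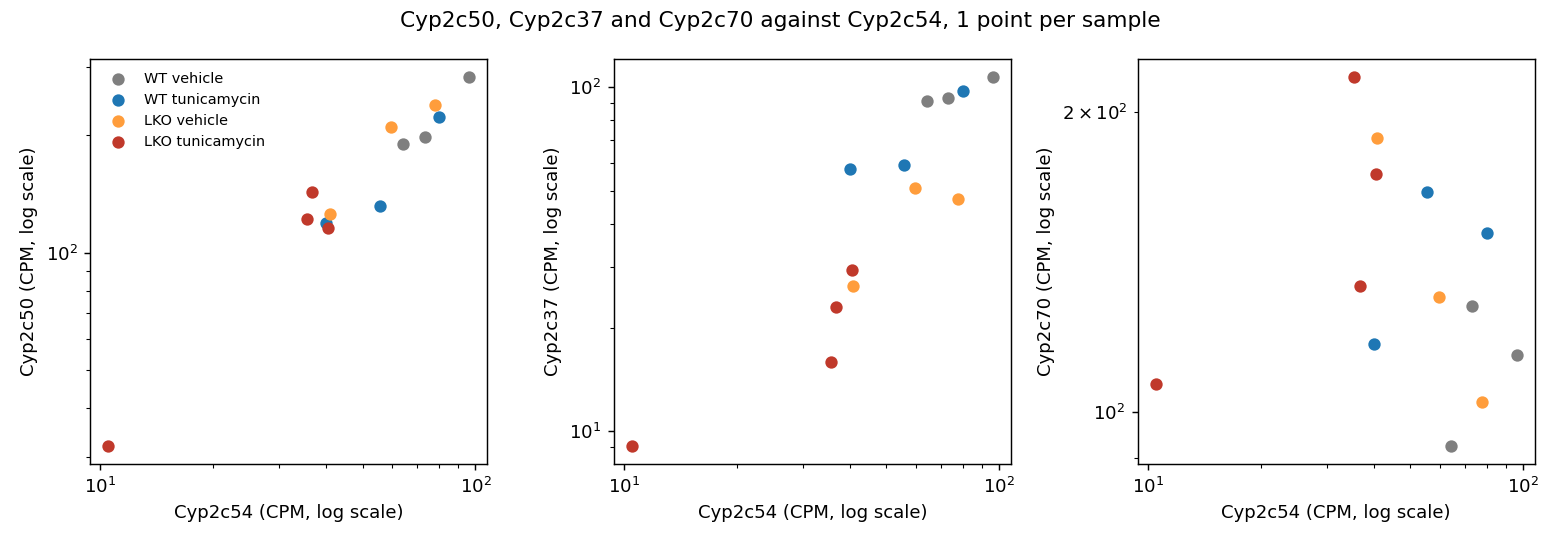
CPM of Cyp2c50, Cyp2c37 and Cyp2c70 (y axes, log scale) against CPM of Cyp2c54 (x axes, log scale), 1 point per sample, coloured by group. Cyp2c50 follows Cyp2c54 over its whole range of 10.5 to 96.2 CPM, and Cyp2c70 shows no such line. Cyp2c37 lies lower in LKO at a like level of Cyp2c54. The tunicamycin points form the contrast that chose the genes, so their part in this is a description. The lowest Cyp2c54 value is LKO tunicamycin 3.

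The remaining genes had few reads. Cyp2c38 had mean levels of 12.9 ± 2.74 CPM (SD over 3 samples) in WT vehicle, of 9.37 ± 3.22 (3 samples) after tunicamycin in WT, of 9.46 ± 3.30 (3 samples) with vehicle in LKO and of 8.22 ± 1.35 (4 samples) after tunicamycin in LKO. Cyp2c55, best known from the intestine, had 3 to 32 reads per sample and group means of 1.45 to 1.73 CPM. Cyp2c39, an enzyme of retinoic acid breakdown, had 1 to 13 reads per sample and was not tested. Neither Cyp2c38, with 44 to 183 reads per sample, nor Cyp2c55 was called in any comparison. For Cyp2c55 the differences between groups were not detectable at this depth.

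The genes most like each member over the 13 samples, by Pearson r of log2 CPM, are given as a description. For Cyp2c29 they were Cyp2d26 (0.95), Lrrc28 (0.92) and Serpina1c (0.91), and for Cyp2c37 Mup3 (0.96), Serpina1c (0.94) and Lrrc28 (0.93). For Cyp2c44 they were Tdo2 (0.90), Klf15 (0.90) and Adi1 (0.89), for Cyp2c55 Dennd1a (0.89), Tob1 (0.83) and Sfxn5 (0.82), and for Cyp2c70 Psmg2 (0.84), Moxd1 (0.82) and Chm (0.82).

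Known regulators of Cyp2c genes numbered 17, all tested. By edgeR 0 were called for tunicamycin in WT or LKO, for LKO against WT with vehicle or for the interaction. In these comparisons 4, 3, 2 and 3 had an unadjusted p under 0.05, against 14.8, 12.2, 8.15 and 4.91% of all genes. DESeq2 called 1, Foxa3, higher after tunicamycin in WT. Both tools called 3 in LKO against WT after tunicamycin, all lower, where edgeR called 0.861% of all genes. The median of the list there was -0.05. Hnf4a, a nuclear receptor that maintains hepatocyte genes, was at 182.9, 173 and 164 CPM in WT and at 120.7, 119, 114.5 and 122 CPM in LKO, and the groups did not overlap. It differed by -0.54 ± 0.12 on the log2 scale (SE; edgeR adjusted p 0.0405). Foxa3, a forkhead factor, was at -0.82 ± 0.14, with an edgeR adjusted p of 0.0160, and Nr0b2, a corepressor induced by bile acid signalling, at -1.51 ± 0.32, with an edgeR adjusted p of 0.0405. Over leaving out each sample in turn these calls were kept in 4, 11 and 7 of 13 fits, and the adjusted p reached 0.170, 0.109 and 0.199; all were lost without WT tunicamycin 1 and without LKO tunicamycin 4, and none was kept with log2(FPKM + 1).

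Nr1i3, which encodes CAR, was at 20.4, 16.02 and 18.9 CPM in WT vehicle and at 10.6, 10.5 and 12.5 CPM in WT tunicamycin, without overlap (log2 -0.72 ± 0.21, SE; edgeR adjusted p 0.125). In LKO it was at 8.77, 13.7 and 15.4 CPM with vehicle and at 7.74 to 13.5 CPM after tunicamycin. Nr1i2, which encodes PXR, stayed between 8.98 and 13.5 CPM in the 13 samples, Cebpa between 24.1 and 42.8 CPM and Rxra between 80.2 and 101.3 CPM. Por was at 59.7 to 84.3 CPM in LKO tunicamycin, 86.3 to 118.8 CPM in WT tunicamycin and 71.0 to 129.5 CPM with vehicle, and its log2 fold change in LKO against WT after tunicamycin was -0.50 ± 0.18, with an edgeR adjusted p of 0.197.

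The counts below stand beside these shares of all genes. An unadjusted p under 0.05 was reached by 14.8% for tunicamycin in WT and 12.2% in LKO. It was reached by 8.15% for LKO against WT with vehicle, 15.8% after tunicamycin and 4.91% for the interaction. By edgeR 0.363% were called for tunicamycin in WT and 0.861% for LKO against WT after tunicamycin. Of the 8 electron donors and epoxide hydrolases, all tested, 0 were called by edgeR or DESeq2 in any of the 5 comparisons. An unadjusted p under 0.05 was found for 0 to 4 of them, with medians from -0.35 (LKO against WT after tunicamycin) to 0.02 (interaction). Of 18 other genes known to respond to CAR and PXR, 12 were tested and 0 were called by edgeR or DESeq2; 10 of 12 log2 fold changes were below 0 after tunicamycin in WT and 12 of 12 in LKO, 4 and 6 genes had an unadjusted p under 0.05, and the medians were -0.44 and -0.55. Pericentral genes, which mark the zone where many P450 genes are highest, gave 0 calls by edgeR among 18 tested, as did 11 periportal, 15 male-biased and 4 female-biased growth hormone genes, with medians between -0.37 and 0.09 over all comparisons and 0 to 4 genes of a list at an unadjusted p under 0.05. DESeq2 called none of the pericentral genes and at most 2 of each of the other 3 lists in a comparison. Acute-phase genes, which the liver induces in inflammation, had log2 fold changes above 0 for 23 of 23 after tunicamycin in WT, with a median of 2.06, 2 called higher by edgeR and 16 by DESeq2 (edgeR: Hpx at 2.02 ± 0.41, adjusted p 0.0427, and Steap4 at 1.997 ± 0.40, adjusted p 0.0399), and for 21 of 23 in LKO against WT with vehicle, with a median of 0.96, 0 called by either tool and 8 at an unadjusted p under 0.05. After tunicamycin in LKO 22 of 23 were above 0, with a median of 1.06, 0 called by edgeR and 1 by DESeq2. In LKO against WT after tunicamycin 12 of 23 were above 0 and 11 below, with a median of 0.0026. In the interaction 23 of 23 were below 0, with a median of -0.93. Neither tool called any in these comparisons, and 3 and 5 had an unadjusted p under 0.05, all below 0. A link between acute-phase and Cyp2c genes was not tested. Both edgeR calls were lost in 9 of the 13 fits that left out a sample, among them those without WT tunicamycin 1 or 2. Of 12 endoplasmic reticulum stress genes tested, 6 were called higher by edgeR after tunicamycin in WT, led by Pdia4 (1.63 ± 0.22, log2, SE), Hsp90b1 (1.27 ± 0.20), Sdf2l1 (1.69 ± 0.28) and Hspa5 (1.57 ± 0.29), and 7 were called lower in LKO against WT after tunicamycin, led by Hspa5 (-1.78 ± 0.27), Creld2 (-3.004 ± 0.44), Hsp90b1 (-1.12 ± 0.19) and Ddit3 (-4.02 ± 0.66). All of these calls were lost without WT tunicamycin 1. For tunicamycin in LKO neither tool called any of the 12 stress genes. There 10 were above 0 and 2 below, with a median of 0.36, against 1.42 in WT. An unadjusted p under 0.05 was found for 2, against 12.2% of all genes.

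The summed hepatocyte markers lay between 20317 and 24312 CPM in LKO tunicamycin and between 20628 and 31045 CPM in WT tunicamycin. The summed level of 7 bile duct markers was 36.3 to 111.7 CPM in LKO tunicamycin and 8.49 to 42.7 CPM in WT tunicamycin, with Cftr at 0 in both WT groups. The 11 markers of Kupffer cells and macrophages summed to 79.4 to 157 CPM in LKO tunicamycin and 74.7 to 98.0 CPM in WT tunicamycin, and the 11 of stellate cells and fibroblasts to 122 to 197 CPM and 109 to 149 CPM. The 9 endothelial markers summed to 122 to 150.3 CPM and 136 to 146 CPM. In LKO against WT after tunicamycin, edgeR called 0 stellate markers and DESeq2 called 1, Col1a2, higher. Of 11 macrophage markers 11 had log2 fold changes above 0 there, with 2 at an unadjusted p under 0.05, against 15.8% of all genes. For tunicamycin against vehicle in LKO 11 of 11 were also above 0, with 6 at that p, against 12.2% of all genes. Neither tool called a macrophage marker in either comparison. The B and T cell markers found in the files, 5 of 7, summed to at most 0.799 CPM, and of the 5 kidney and gut markers Umod was at 0 in every group. The part of these cell types in the differences between groups was not tested.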

How the data were processed

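RNA of 14 liver libraries was measured by sequencing. The submitters' processing notes name Trimmomatic, STAR, Cufflinks and mm10, without versions. The deposited read counts per gene are raw and in STAR's gene count layout, per the file headers; they give reads without regard to strand and for each strand; the column of the gene's strand was used, which held 99.5 to 99.6% of stranded reads. Only reads placed at 1 site are in these counts, and multimapping reads were 10.9 to 13.6% of mapped reads, which lowers the counts of genes with near-identical copies. The deposited FPKM values of the authors come from a separate table, taken as deposited, with 24886 entries; their depth is not given.

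Counts of LKO vehicle 3 and 4 were summed (chi-square per degree of freedom 1.12 between them, 3.38 to 25.9 for other pairs within groups). In R 4.3.3, edgeR 4.0.16 with TMM scaling, filterByExpr and the quasi-likelihood test was fitted to 13 samples in 1 model of group means, and p-values were adjusted by Benjamini-Hochberg over 9644 genes, with calls at 0.05. The log2(CPM) used for correlations had a prior count of 2. The fit was tested on simulated data. DESeq2 1.42.0, limma 3.58.1 on log2(FPKM + 1) and other scalings, filters and samples left out were the alternatives. Intervals and floors of 3 reads cover counting error only, and reads are not independent molecules. Sequences are from RefSeq (GRCm38.p6) and GENCODE transcripts (release M21), compared with Biopython 1.88.

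The members and lists were chosen with earlier results of these data known. All members were named; of other genes, the 3 most alike (Pearson r) to each of 5 members, list members that were called (the 4 with the smallest adjusted p where there were more) and 6 genes whatever their values.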

Additional observations from a re-analysis of the deposited data

Results flagged for a closer look

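In the LKO tunicamycin group, 3 of the 19 genes examined had a sample whose gap to the nearest other sample, divided by the range of the 4, was above Dixon's critical value. For Cyp2c54 the ratio was 0.834: LKO tunicamycin 3 was at 10.5 CPM, and the other samples at 35.5 to 40.5 CPM. For Cyp2c39 it was 0.885: the same library was at 0.102 CPM, which is 1 read, and the others at 0.933 to 1.04 CPM. For Rxra it was 0.878: LKO tunicamycin 4 was at 94.1 CPM, and the others at 86.1 to 87.1 CPM. At this critical value chance gives such a gap in about 5% of groups. The low Cyp2c54 value moves the log2 fold change of tunicamycin in LKO from -0.96 to -0.67 when it is left out.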

How the results depend on the processing

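Over the 5 comparisons and 9 tested genes, 1008 of 1070 fold changes under the alternatives kept their direction and side of the threshold, 53 changed sign, 5 newly passed and 4 no longer passed. The tally takes in the contrast that chose the genes, so it is a description only. With no filter on low counts, 3 genes were called for tunicamycin in LKO (Cyp2c37, Cyp2c50 and Cyp2c54) and 1 (Cyp2c37) for LKO against WT with vehicle. It called 153 and 84 genes of the whole table there, against 3 and 4 with the filter. The log2 fold change of Cyp2c37 for tunicamycin in LKO was -1.13 in place of -1.12. In the contrast that chose the genes, Cyp2c54 was marked as well, with 261 genes of the whole table against 83. For LKO against WT after tunicamycin, log2(FPKM + 1) without a filter gave 0 calls, and leaving out 1 sample gave 0 (without WT tunicamycin 1) to 2. The cause was not tested. Depth limits Cyp2c39, Cyp2c40 and Cyp2c55, which had 0 to 32 reads per sample.

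Total count scaling moved the median of all genes by -0.19 for tunicamycin in WT and by 0.15 after tunicamycin and in the interaction (without Rn45s, chosen after seeing the data, by -0.14, 0.078 and 0.088). With it, without Rn45s, and on log2(FPKM + 1) and log2(FPKM + 0.1) in that order, the log2 fold change of Cyp2c29 for tunicamycin in WT was -0.17, -0.11, -0.087 and -0.088, that of Cyp2c44 in LKO against WT after tunicamycin 0.10, 0.020, 0.11 and 0.12, and its interaction 0.078, 0.0069, 0.073 and 0.077. On log2(FPKM + 1), with the same values with and without the filter, and on log2(FPKM + 0.1), Cyp2c40 was at 0.046 and 0.064 for tunicamycin in LKO, 0.050 and 0.066 in LKO against WT after tunicamycin, and 0.29 and 0.37 in the interaction. Without the filter Cyp2c55 was at 0.039 in LKO against WT with vehicle.

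Leaving out LKO vehicle 3 and 4 gave -0.018 for Cyp2c70 for tunicamycin in LKO, -0.21 for Cyp2c44 with vehicle and 0.15 for its interaction. Leaving out 1 other sample gave these ranges of log2 fold changes that crossed 0. For tunicamycin in WT they were -0.091 to 0.11 for Cyp2c29, -0.64 to 0.17 for Cyp2c40 and -0.65 to 0.35 for Cyp2c55. In LKO they were -1.25 to 0.27 for Cyp2c40, -0.077 to 0.47 for Cyp2c55 and -0.014 to 0.43 for Cyp2c70. With vehicle they were -0.014 to 0.16 for Cyp2c44 and -0.34 to 0.0011 for Cyp2c50. After tunicamycin they were -0.42 to 0.092 for Cyp2c38, -0.19 to 0.037 for Cyp2c44, -0.35 to 0.65 for Cyp2c55 and -0.061 to 0.27 for Cyp2c70. For the interaction they were -0.0071 to 0.50 for Cyp2c38, -1.07 to 0.45 for Cyp2c40, -0.22 to 0.015 for Cyp2c44, -0.11 to 0.89 for Cyp2c55 and -0.39 to 0.076 for Cyp2c70.

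The labels number the replicates and do not say that equal numbers were paired. Of 19 same-numbered pairs across groups, 3 had deviations that correlated over 0.1 (-0.11 to 0.14). Differently numbered pairs ranged from -0.21 to 0.20, so the check showed no pairing and cannot exclude one. A fit with the replicate number as a block kept all 14 libraries separate. It called 0 of the 9 genes outside the contrast that chose them, as without the block. In LKO against WT after tunicamycin, which chose the genes, it marked 2, with 90 genes of the whole table, and nothing is read from that count. Cyp2c55 was at -0.043 in that comparison. The order of the genes by coding length was not run, since no protein table was used here.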

Other observations

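In LKO tunicamycin 3, the sample with the lowest Cyp2c50 and Cyp2c54, some genes outside that block were also the lowest of their group and others were not. Cyp2c29 was lowest there by a small margin, at 174 CPM against 176 to 240.0 CPM in the other samples of its group, Cyp2c70 was at 107 CPM against 134 to 217 CPM, and Cyp2c39 had 1 read. Cyp2c44 was at 95.3 CPM there, against 73.7 to 93.7 CPM in the others, and Cyp2c38 at 8.56 CPM, against 6.26 to 9.34 CPM. Cyp2c50 gave 7.29% of the reads of the 10 genes in that sample and 16.5 to 21.2% in the rest of its group. The ratio of Cyp2c50 to Cyp2c54 reads was 3.05 there, within the range of the other samples.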
